A study of Mus musculus with 24 samples.

Results

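The net change of expression over the whole differentiation was measured in mouse embryonic stem cell (mESC) lines that carried a deleted copy of Smchd1. Its members were chosen by label as the 3 het day 3 libraries and the 3 het day 0 libraries, 6 of 24 libraries in the series, and all 35591 genes of the raw count table entered the comparison. The 6 het libraries came from 3 male primary mESC lines, each derived from its own blastocyst and sampled on both days. Het lines had the genotype Smchd1[del/+], with the deleted allele inherited from a C57BL/6 father carrying MMTV-Cre and the intact allele from a Castaneus (Cast) mother, and wt control lines were Smchd1[fl/+] from the same type of cross. On day 0 the cells were in DMEM with serum and LIF, after a stepwise move out of 2i and LIF medium. They were then cultured in N2B27 with bFGF, the Wnt activator CHIR99021 was added from day 2, and day 3 cells were harvested as neuromesodermal progenitors (NMPs). A few lines per genotype, grown in a dish on a mixed background, limit these cells as a model of the embryo.

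Naive mESCs are held in self-renewal by LIF, through STAT3, and by a network of transcription factors around Oct4 (Pou5f1), Sox2 and Nanog. When LIF is withdrawn and FGF is supplied, cells pass through an epiblast-like state, and Wnt with FGF then turns epiblast cells into NMPs, the bipotent cells of the tail end of the embryo that feed both the spinal cord and the trunk mesoderm. NMPs are known for co-expression of T (Brachyury) and Sox2, for Cdx and Nkx1-2 expression, and for the opening of the Hox clusters, whose genes give cells their position along the head-to-tail axis. In bulk RNA, fewer cells of a type and less RNA per cell cannot be told apart.

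Library totals ranged from 16.1 to 18.8 M (mega) counts on day 0 and from 18.9 to 20.7 M on day 3. The mitochondrial share of counts was 0.737 to 0.879% on day 0 and 0.482 to 0.602% on day 3, and its part in the results was not tested. Correlations of log2 CPM (counts per M counts) across genes were 0.995 to 0.997 between libraries of one day and 0.963 to 0.970 between days, with genes not being independent replicates. The labelled identities were checked against their defining markers. The 4 naive stem cell markers (Nanog, Klf4, Zfp42 and Esrrb) summed to 1007 to 1149 CPM on day 0 and to 89.3 to 156 CPM on day 3, and the 4 NMP markers (T, Sox2, Nkx1-2 and Cdx2) to 226 to 254 and 401 to 717 CPM. Of these NMP markers Sox2 fell, so that the sum on day 0 was Sox2 almost alone.

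Smchd1 (chromosome 17, 71344489 to 71475343, GRCm38), the deleted gene, had 101, 89.4 and 92.8 CPM on day 0 and 107, 106 and 104 CPM on day 3 in het lines 1, 2 and 3, the order used throughout. Day 3 lay above day 0 in all 3 lines by little. The log2 fold change was 0.17 ± 0.07 (SE, n = 3 against 3), with an adjusted p of 0.056 in edgeR's quasi-likelihood test. Scaling by library totals alone gave 0.28 with an adjusted p of 0.0036, and keeping only genes with a mean of 50 counts gave an adjusted p of 0.049. In wt lines the level was 142 ± 9.69 CPM on day 0 and 193 ± 23.1 CPM on day 3 (SD, n = 3). The count covers the whole gene, so it does not separate transcripts of the deleted allele from those of the intact allele.

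Day 3 was compared with day 0 to find what the het lines gained and lost between stem cell and NMP. Of 15836 genes tested, 10187 (64.3%) passed an adjusted p of 0.05, 5183 higher on day 3 (32.7%) and 5004 lower (31.6%). Because so many passed, a stricter test asked which changes went beyond a log2 fold change of 1. It called 2816 genes (17.8%), 1563 higher (9.87%) and 1253 lower (7.91%), and these 2816 moved the same way in all 3 lines. The median log2 fold change over all genes tested was 0.02 and the median size of change was 0.59, and the groups did not overlap for 11062 genes (69.9%). Lists of genes with a shared role are read below against these shares. Protein-coding genes made up 89.4% of the 2816 and 88.6% of the genes tested, and lincRNA genes 4.08% and 2.89%. On day 0, 74 genes called higher had no count in any library, and 21 called lower had none on day 3. These genes passed the filter on low counts only through the other day, so their direction was fixed by the filter. They are included in the 5183 and 5004 above.

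**Figure D1:**
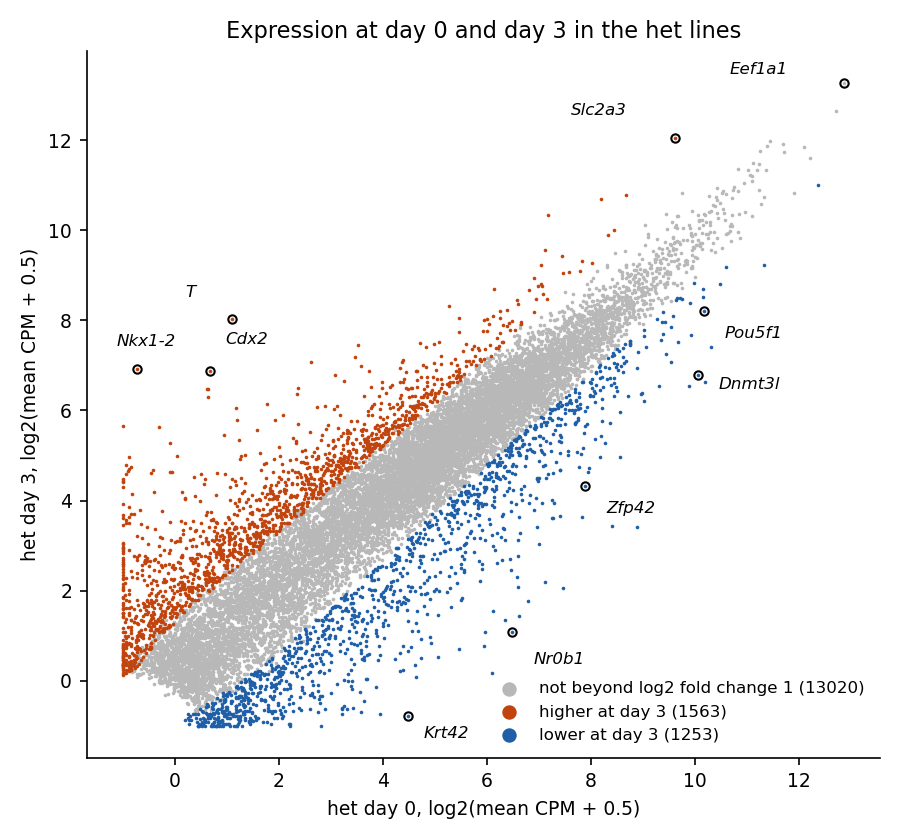
Level of each tested gene in het lines on day 0 (x axis) and day 3 (y axis), as log2 of the mean CPM plus 0.5, with genes called beyond a log2 fold change of 1 coloured by direction and a few genes ringed and named. There are 1563 such genes above the diagonal band and 1253 below it, and those at the left edge have a day 0 mean near 0.

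The naive pluripotency genes fell together. All 16 of the list were lower on day 3 (15 with library totals alone, in a fit of all 24 libraries, without line 2 and without line 3), 14 of them beyond a log2 fold change of 1, with a median of -3.44 against 0.02 over all genes. Nanog (chromosome 6, 122707489 to 122714633), which stabilises self-renewal, had 346, 434 and 356 CPM on day 0 and 47.5, 86.6 and 50.7 CPM on day 3. The groups were far apart, with line 2 the highest on both days, and the log2 fold change was -2.61 ± 0.18 (adjusted p 7.3e-08). Zfp42 (Rex1), a classical marker of the naive state, went from 238, 248 and 226 CPM to 14.4, 25.1 and 18.7 CPM, a change of -3.61 ± 0.15. Klf4, another factor of the naive network, went from 74.4, 68.8 and 76.1 CPM to 4.60, 5.61 and 6.70 CPM, a change of -3.69 ± 0.13. The fall of Nr0b1 (Dax1), which encodes an Oct4-binding nuclear receptor, was the deepest of the list, from 90.2, 96.5 and 81.5 CPM to 1.84, 1.32 and 1.67 CPM, or -5.79 ± 0.14 (adjusted p 2.3e-11). Klf5 (-1.10) and Tbx3 (-0.53) fell but did not pass the stricter test.

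Most core pluripotency genes also fell. Of 12 tested, 10 were lower and 2 higher, 9 of the lower ones beyond a log2 fold change of 1, with a median of -1.99. Pou5f1 (chromosome 17, 35506018 to 35510772), which encodes Oct4, had 1147, 1171 and 1141 CPM on day 0 and 269, 348 and 265 CPM on day 3. It was still abundant on day 3 in every line, and the change was -1.97 ± 0.09 (adjusted p 2.3e-09), and the exons of Gm19553 on the other strand overlap it, which makes part of its count uncertain. Sox2, a partner of Oct4 that NMPs also express, went from 222, 225 and 251 CPM to 39.6, 54.5 and 40.3 CPM, a change of -2.37 ± 0.11. L1td1, which encodes an RNA-binding protein of stem cells, fell from 1313, 1268 and 1213 CPM to 150.4, 189.5 and 173 CPM. The members that rose were Lin28a, which blocks maturation of let-7 miRNAs, from 636, 627 and 634 to 866, 715 and 772 CPM (0.32 ± 0.07, adjusted p 0.0013), and its relative Lin28b (0.73 ± 0.14).

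Genes of the LIF pathway were 2 higher and 7 lower of 11, with a median of -1.09. Socs3, the feedback inhibitor that STAT3 switches on, went from 88.9, 90.1 and 82.8 CPM to 11.5, 18.6 and 15.4 CPM, a change of -2.52 ± 0.14. The receptor gene Lifr fell by 1.59 on the log2 scale, and the kinase gene Jak2 rose from 14.6, 10.4 and 7.67 CPM to 52.3, 47.5 and 61.4 CPM (2.30 ± 0.18). Members of this pathway therefore moved in both directions.

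**Figure D2:**
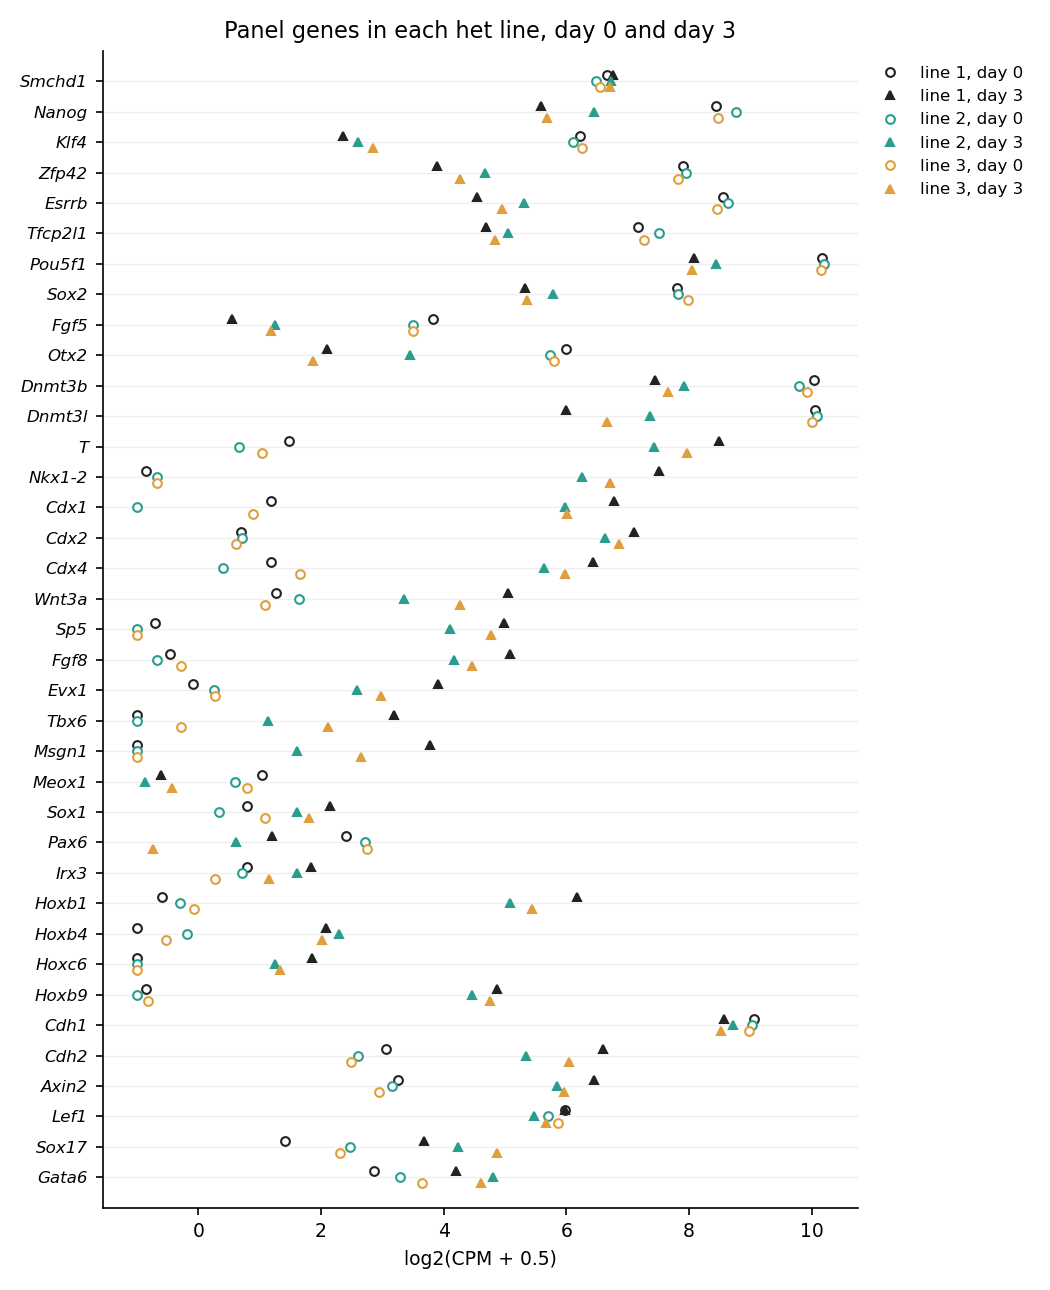
Level of the 37 panel genes in each het line as log2 of CPM plus 0.5 (x axis), with open circles for day 0, triangles for day 3 and 1 colour per line. Naive genes such as Nanog and Zfp42 sit lower on day 3 in every line, T, Nkx1-2 and Cdx2 sit higher, and the Smchd1 points of both days lie close together.

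Genes of the formative and primed epiblast, the state between naive cells and the germ layers, were also lower on day 3, with 12 lower and 1 higher of 14 tested, 8 of the lower ones beyond a log2 fold change of 1 and a median of -1.68. Otx2 (chromosome 14, 48657677 to 48673819), an anterior and epiblast transcription factor with overlapping annotated exons on both strands, had 63.3, 52.8 and 55.2 CPM on day 0 and 3.79, 10.4 and 3.15 CPM on day 3. Line 2 was the lowest on day 0 and the highest on day 3, and the change of -3.29 ± 0.31 (adjusted p 1.0e-06) was -4.09 without line 2. On the way, Otx2 stood at 73.5 ± 9.26 CPM on day 2 and 6.30 ± 1.09 CPM on day 2.5 (SD, n = 3). Fgf5, the epiblast growth factor, had 13.6, 10.9 and 10.8 CPM on day 0 and 0.972, 1.88 and 1.77 CPM on day 3, and Foxd3, needed to keep epiblast cells alive, went from 10.2, 13.0 and 11.2 CPM to 0, 0.141 and 0.197 CPM (-6.56 ± 0.42, and -7.17 without line 3). The 3 epiblast markers together had 91.6 to 116 CPM on day 0, 127 to 159 CPM on day 2 and 13.8 to 26.2 CPM on day 3.

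Genes of DNA methylation and demethylation were 10 lower and 2 higher of 13, with a median of -1.59, and 7 fell beyond a log2 fold change of 1. Dnmt3b, a de novo methyltransferase, went from 1049, 884 and 968 CPM to 175, 240.0 and 200.1 CPM (-2.23 ± 0.11) after 1223 ± 31.8 CPM on day 2. Its catalytically inactive partner Dnmt3l, whose exons overlap Aire, went from 1065, 1081 and 1030 CPM to 63.1, 164 and 101 CPM (-3.27 ± 0.24). Line 2 was the highest on day 3 in both. Among the oxidases that start demethylation, Tet1 fell from 592, 657 and 653 CPM to 85.0, 109 and 84.9 CPM (-2.76 ± 0.10) while Tet3 rose (1.11 ± 0.12). The maintenance genes Dnmt1 (-0.50) and Uhrf1 (-0.44) fell by less than the median size of change of all genes.

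The genes of the caudal epiblast and NMP rose. Of 20 symbols 18 were tested, and 16 were higher, all 16 beyond a log2 fold change of 1, with a median of 5.08. The 1 member that fell was Sox2, which the list shares with pluripotency, and Fgf17 (0.19) did not pass. T (chromosome 17, 8434423 to 8442496), the T-box factor of streak and tailbud, had 2.29, 1.08 and 1.56 CPM on day 0 and 358, 172 and 249 CPM on day 3. That was a fitted rise of 155-fold, or a log2 fold change of 7.28 ± 0.31 (adjusted p 1.1e-09), with line 1 the highest. Nkx1-2 (chromosome 7, 132594878 to 132599637), a homeobox gene of the caudal lateral epiblast, was at 1 or 2 counts per library on day 0 and reached 182, 75.6 and 105 CPM on day 3. Its log2 fold change was 10.12 ± 0.50, and 9.38 without line 1. An antisense gene, Gm16764, shares its exons.

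The Cdx genes encode homeobox factors that act upstream of the trunk Hox genes. Cdx2 (chromosome 5, 147300805 to 147307270) had 1.12, 1.14 and 1.04 CPM on day 0 and 137, 98.9 and 116 CPM on day 3. The lines lay close together on each day, and the log2 fold change was 6.73 ± 0.17 (adjusted p 3.0e-11). Cdx1 went from 1.79, 0 and 1.36 CPM to 109, 62.6 and 64.2 CPM (6.19 ± 0.41). Fgf8, the ligand that keeps tailbud cells undifferentiated, had 0.223, 0.127 and 0.325 CPM on day 0 and 33.3, 17.4 and 21.6 CPM on day 3 (6.71 ± 0.37). For Foxb1, with 1 count on day 0, the ratio of counts was 1149 with an exact 95% interval of 206 to 45421, and its fitted change of 9.76 was 9.07 without line 1 and 11.80 without line 3. Line 1 was the highest of the 3 lines on day 3 in T, Nkx1-2, Cdx1, Cdx2, Fgf8 and Foxb1.

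Promoter sequences are shown for Sp5 and Msgn1, a pair of rising genes with a TCF/LEF motif near their start, and for Cdx2, which holds an octamer motif of the kind that Oct4 binds. Each is the 250 bases before the RefSeq start on GRCm38.p6, read 5′ to 3′ on the gene's strand, at chr2:70474673-70474922 on the plus strand for Sp5, chr12:11208949-11209198 on the minus strand for Msgn1 and chr5:147307250-147307499 on the minus strand for Cdx2. Capitals mark the motif match, which begins 104 bases before the start in Sp5, 203 in Msgn1 (on the opposite strand) and 147 in Cdx2.
Sp5: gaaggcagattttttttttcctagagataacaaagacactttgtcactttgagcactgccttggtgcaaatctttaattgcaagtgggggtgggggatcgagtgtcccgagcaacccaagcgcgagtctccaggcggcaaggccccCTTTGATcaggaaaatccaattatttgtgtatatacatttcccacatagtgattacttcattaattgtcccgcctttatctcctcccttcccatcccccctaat
Msgn1: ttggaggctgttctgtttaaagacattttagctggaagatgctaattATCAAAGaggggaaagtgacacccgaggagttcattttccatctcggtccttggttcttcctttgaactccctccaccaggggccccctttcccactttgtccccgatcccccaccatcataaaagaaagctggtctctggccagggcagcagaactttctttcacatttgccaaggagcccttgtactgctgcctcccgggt
Cdx2: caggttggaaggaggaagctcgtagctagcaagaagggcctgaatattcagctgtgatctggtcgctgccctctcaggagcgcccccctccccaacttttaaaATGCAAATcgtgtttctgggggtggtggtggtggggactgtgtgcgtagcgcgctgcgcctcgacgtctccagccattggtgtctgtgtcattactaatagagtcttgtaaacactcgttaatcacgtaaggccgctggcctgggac

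Such matches were infrequent in all gene groups. Both strands of RefSeq promoters of 300 bases (250 before to 50 after the start) were searched for CTTTGAT (TCF/LEF), ATGCAAAT (octamer) and TTTATTG (CDX), none of which contains another. CTTTGAT was in 3.40% of 1410 promoters of the genes higher beyond a log2 fold change of 1, in 2.71% of 1145 promoters of those lower and in 2.59% of 14608 promoters of all genes tested. ATGCAAAT was in 1.63, 1.83 and 1.43% and TTTATTG in 2.13, 3.06 and 2.48%. Over all 32851 RefSeq promoters, tested genes or not, CTTTGAT was in 3.73%, ATGCAAAT in 1.74% and TTTATTG in 4.60%. The share of CTTTGAT in rising genes thus lay between the 2 backgrounds. In a fixed panel of 37 genes, those on chromosome 18 (Cdx1, Cdh2 and Gata6) were left out of the promoter search. Of the others, 28 matched a RefSeq promoter, and 9 of their 40 promoters held a match. A match is a description of letters and not a bound site.

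Direct targets and feedback genes of Wnt signalling were mostly higher on day 3. Of 18 tested, 14 were higher and 2 lower (1 without line 3), with a median of 1.15, and 8 rose beyond a log2 fold change of 1. Axin2, a negative regulator that Wnt itself induces and that shares exons with Gm11670, had 9.04, 8.39 and 7.21 CPM on day 0 and 86.5, 56.8 and 62.0 CPM on day 3 (3.06 ± 0.16). Sp5, a zinc finger gene directly induced by Wnt, had 2 counts in the 3 day 0 libraries and 31.3, 16.7 and 26.7 CPM on day 3. The ratio of its counts was 605, with an exact 95% interval of 167 to 5001 that covers counting error only. Dkk4, a secreted Wnt antagonist, stood at 85.7 CPM on day 2.5 and had dropped back to 7.88, 15.5 and 8.96 CPM on day 3, from 1 count on day 0. With so few day 0 counts, the fitted change of Sp5 was 9.03, and 11.62 without line 1, and that of Dkk4 was 8.64, with 7.84 without line 2 and 10.77 without line 3. Lef1 (-0.13) did not pass and Ccnd1 (-0.61) fell, both often used as Wnt readouts. The ligand gene Wnt3a had 1.90, 2.61 and 1.62 CPM on day 0 and 32.7, 9.71 and 18.8 CPM on day 3 (3.32 ± 0.39), although it was at 0.0200 ± 0.0346 CPM on day 2, and Wnt8a went from 9.26, 5.66 and 9.10 CPM to 128, 97.6 and 106 CPM (3.78 ± 0.16).

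The ERK feedback genes, by contrast, had no common direction. There were 6 higher and 5 lower of 17, with a median of 0.07. Il17rd (Sef), an inhibitor of FGF receptors, rose from 58.9, 63.4 and 58.3 CPM to 226, 225 and 198 CPM (1.85 ± 0.08) and the phosphatase gene Dusp4 rose by 1.5 ± 0.09. The ETS factor gene Etv5 fell from 329.5, 270.3 and 292 CPM to 78.1, 76.7 and 72.6 CPM (-1.97 ± 0.08) and its relative Etv4 rose (0.90 ± 0.14).

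Hox genes were near the limit of detection on day 0 and present on day 3. Of 39 Hox genes 30 were tested, and 27 of them were higher, each of the 27 beyond a log2 fold change of 1. However, 15 of the 30 had no count on day 0 and passed the filter on low counts only through day 3, so their direction was fixed by the filter, and the other 12 higher genes were among 15 with day 0 counts. The median was 7.49, and 6.14 when the 15 genes without a count on day 0 were set at the bound that 3 counts over the group allow. Without line 2 the median of fitted changes was 8.16. Hoxb1, the first gene of its cluster, had 0.167, 0.318 and 0.455 CPM on day 0 and 71.7, 33.2 and 42.8 CPM on day 3, a change of 7.30 ± 0.39, or 6.60 without line 1. Hoxb9 (chromosome 11, 96271457 to 96276595), a gene of the trunk, had 2 counts on day 0 and 28.9, 21.4 and 26.5 CPM on day 3, a ratio of 626 with an exact 95% interval of 173 to 5170. Hoxb4, between them in the cluster, went from 0, 0.381 and 0.195 CPM to 3.73, 4.38 and 3.55 CPM. Its change was 4.35 ± 0.57, which became 3.75 without line 1 and 5.23 without line 2.

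In the Hoxc cluster Hoxc6 had no count on day 0 and 3.12, 1.88 and 2.02 CPM on day 3, so it was at least 38.0-fold higher. The tail-end genes Hoxc13 and Hoxd13, which shape the end of the axis, were among the 3 tested genes that did not pass, with 0.81 ± 0.51 and 0.41 ± 0.37. Of the Hox cofactor genes, whose products bind DNA with Hox proteins, 7 of 9 were higher and 1 was lower, with a median of 1.19. Meis2 went from 2.23, 1.59 and 1.36 CPM to 25.6, 18.4 and 19.3 CPM (3.6 ± 0.22), and Pknox1 fell by 0.91 on the log2 scale.

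**Figure D3:**
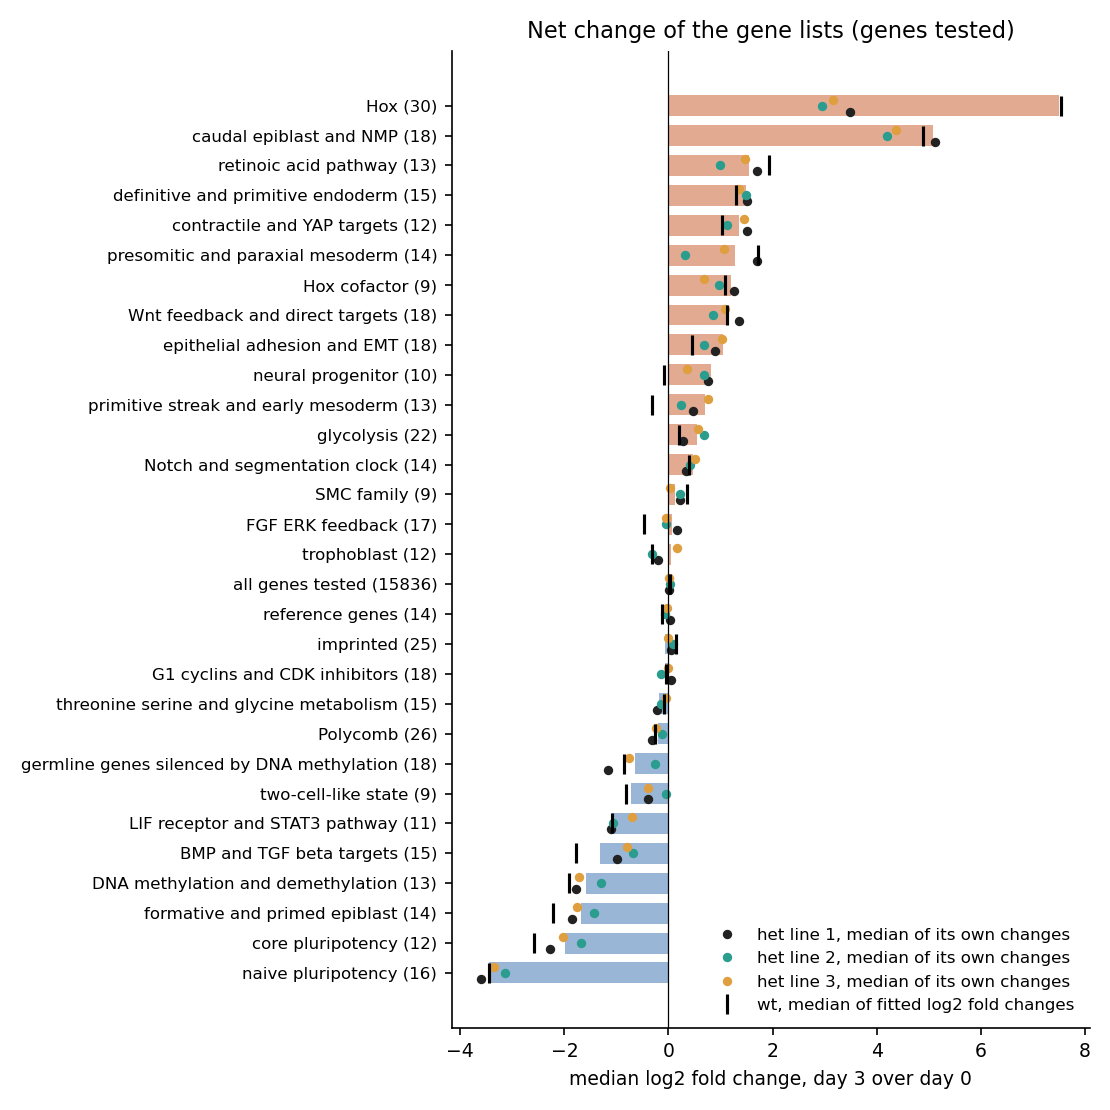
Median log2 fold change of day 3 over day 0 of the tested genes of each list (number in brackets) and of all genes tested, with bars for the het fit, black ticks for the wt fit and points for the median of each het line's own changes of log2 of CPM plus 0.5. Bars run from -3.44 for naive pluripotency to 7.49 for Hox genes, where the added 0.5 CPM pulls the points of the lines towards 0.

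Presomitic and paraxial mesoderm genes, which act once NMPs leave for the mesoderm, were low and uneven. Of 14 tested, 9 were higher and 4 lower, with a median of 1.27. Msgn1, which drives entry into the presomitic mesoderm, had no count on day 0 and 13.3, 2.54 and 5.76 CPM on day 3, at least 115-fold higher, with a fitted change of 10.04 with all lines and 9.24 without line 1. It passed the filter only through day 3, so its direction and its place among the 9 were fixed by the filter. Tbx6, which turns NMPs away from the neural fate, had 0, 0 and 0.325 CPM on day 0 and 8.65, 1.70 and 3.84 CPM on day 3 (5.43 ± 0.87, adjusted p 1.2e-04). Its change was 4.05 without line 1 and 9.59 without line 3, whose day 0 library held the few day 0 counts. Rspo3, a secreted enhancer of Wnt, had 0.837, 0.572 and 0 CPM and then 41.0, 8.95 and 22.5 CPM (5.61 ± 0.64). In these 3 genes line 1 was the highest and line 2 the lowest on day 3. The lower members were Meox1, Tcf15, Ripply1 and Lfng. Ripply1, a repressor at somite borders, fell from 4.69, 5.53 and 4.61 CPM to 0.409, 0.424 and 0.246 CPM (-3.75 ± 0.36).

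Markers of the primitive streak and early mesoderm were 7 higher and 4 lower of 13, with a median of 0.70 that was 0.15 with a mean of 50 counts or with counts thinned to the smallest library. Mixl1, a streak homeobox gene, had 0.391, 0.953 and 0.390 CPM on day 0 and 16.0, 3.20 and 6.16 CPM on day 3 (3.86 ± 0.59), below its 29.2 CPM on day 2.5. The lower members were Hand1, Etv2, Tbx20 and Bmp4, genes of lateral, blood-vessel and heart mesoderm or their inducer. The 3 cardiac and lateral mesoderm markers (Hand1, Kdr and Tbx20) summed to 18.8 to 24 CPM on day 0 and 9.57 to 11.6 CPM on day 3, with Hand1 and Tbx20 lower and Kdr higher.

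Few neural progenitor genes were detected. Of 24 symbols 10 were tested, with 5 higher and 2 lower and a median of 0.82, or 3 higher and a median of 0.40 with a mean of 50 counts. Sox1, an early neural plate gene, had 1.23, 0.763 and 1.62 CPM on day 0 and 3.94, 2.54 and 3.00 CPM on day 3 (1.39 ± 0.37), after 11.5 CPM on day 2. Pax6, which patterns the neural tube, went from 4.80, 6.10 and 6.24 CPM to 1.79, 1.04 and 0.0985 CPM (-2.54 ± 0.53, adjusted p 9.2e-04), or -3.40 without line 1 and -1.94 without line 3, and it was 15.8 ± 1.41 CPM on day 2. The neural markers Sox1, Pax6 and Irx3 together had 7.25 to 8.58 CPM on day 0, 29.4 to 31.7 CPM on day 2 and 4.83 to 8.80 CPM on day 3. Irx3 alone rose by 1.24 ± 0.39 (adjusted p 0.014), which was 1.20 with an adjusted p of 0.062 without line 1, and Irx3os shares its exons.

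Targets of BMP and TGF beta signalling mostly fell. Of 15 tested, 9 were lower and 4 higher, with a median of -1.31, and without line 1 the lower ones were 7 and the median was -0.67. The Id genes encode inhibitors of differentiation that BMP induces, and Id1 went from 97.3, 92.2 and 93.2 CPM to 17.2, 12.4 and 14.6 CPM (-2.67 ± 0.11), Id2 from 127, 118 and 129 CPM to 11, 8.62 and 10.7 CPM (-3.62 ± 0.10), and Id3 by -3.02 ± 0.17. The ligand gene Bmp4, which has overlapping annotated exons, fell from 51.3, 47.0 and 41.6 CPM to 4.91, 5.75 and 7.44 CPM (-2.95 ± 0.15). In the same list Bmp7, another ligand gene, rose from 1.17, 0.572 and 0.650 CPM to 26.8, 20.4 and 20.7 CPM (4.79 ± 0.25).

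Genes of the retinoic acid pathway, whose signal opposes FGF at the front of the NMP zone, were 11 higher and 2 lower of 13, with a median of 1.55. There were 8 higher without line 3, and 9 higher and 0 lower in a fit of all 24 libraries. Without line 1 the median was 1.26. Both sides of the pathway rose. Aldh1a2, which makes retinoic acid, rose by 2.10, and Cyp26a1, which destroys it in the tailbud, went from 1.06, 2.54 and 1.36 CPM to 18.1, 21.7 and 25.7 CPM (3.73 ± 0.26). Crabp1, a binding protein, rose from 1.95, 2.99 and 2.79 CPM to 26.5, 11 and 10.1 CPM (2.63 ± 0.36), or by 1.88 without line 1. Notch and segmentation clock genes were 6 higher and 3 lower of 14, with a median of 0.46. The Notch target Hes1 rose from 8.20, 9.92 and 7.86 CPM to 32.2, 29.4 and 37.3 CPM (1.93 ± 0.14), and Hes5 and Hes7 were too low to test.

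In the list of epithelial adhesion and epithelial-mesenchymal transition genes 11 of 18 were higher and 4 lower, with a median of 1.04. Cdh2 (N-cadherin) went from 7.81, 5.59 and 5.13 CPM to 96.1, 40.0 and 65.6 CPM (3.44 ± 0.28). Cdh1 (E-cadherin) went from 535, 522 and 503 CPM to 379.6, 419 and 366 CPM, a fall of 0.42 on the log2 scale (SE 0.06, adjusted p 9.0e-05), and Epcam (-0.14) did not pass. The groups of libraries did not overlap for either gene. Zeb2, a repressor of E-cadherin with overlapping annotated exons, rose by 3.55 ± 0.28. Of the contractile genes and YAP targets 11 of 12 were higher and 1 was lower (Ccn2, -0.72), with a median of 1.36. Acta2 (smooth muscle actin) went from 4.07, 0.699 and 3.90 CPM to 32.3, 17.7 and 34.5 CPM (3.27 ± 0.40) and Tagln from 31.2, 21.4 and 28.2 CPM to 149, 87.1 and 149 CPM (2.26 ± 0.19). Line 2 was the lowest on both days in both.

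The genes that gained the most of the library, by CPM, were Slc2a3, Eef1a1, Col4a1 and Scd2. Slc2a3, which encodes the glucose transporter GLUT3, had 808, 751 and 798 CPM on day 0 and 3833, 4527 and 4430 CPM on day 3 (2.44 ± 0.07, adjusted p 4.9e-11). Scd2, a fatty acid desaturase gene, rose from 433, 372 and 413 CPM to 1923, 1767 and 1604 CPM (2.12 ± 0.08), and Col4a1, a collagen gene of the basement membrane that shares exons with Col4a2, from 214, 348 and 317 CPM to 1120, 1975 and 1903 CPM (2.51 ± 0.20). The genes that lost the most were Hsp90aa1 and Hspa8, both chaperone genes, Trim28 and Ncl. Trim28 (Kap1), which silences transposons through zinc finger proteins, fell from 2703, 2650 and 2372 CPM to 625, 598 and 583 CPM (-2.09 ± 0.06). Hsp90aa1 fell from 5208, 5416 and 5233 CPM to 2127, 2089 and 1917 CPM (-1.37 ± 0.06).

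Among 22 genes of glycolysis 15 were higher and 5 lower, or 68.2 and 22.7% against 32.7 and 31.6% of all genes tested, with a median of 0.55 against 0.02. Of the 22, 2 rose and 1 fell beyond a log2 fold change of 1. Besides Slc2a3, Aldoc rose from 13.9, 13.0 and 14.1 CPM to 70.2, 79.4 and 62.5 CPM (2.37 ± 0.11), and Pfkp fell by 1.26 on the log2 scale. Of the 15 genes of threonine, serine and glycine metabolism 6 were higher and 7 lower, with a median of -0.18. Tdh, the threonine dehydrogenase on which mouse stem cells depend, fell from 215, 229 and 205 CPM to 15.6, 40.1 and 22.9 CPM (-3.04 ± 0.23), while Gcat, the next enzyme of that route, rose (1.47 ± 0.10). G1 cyclins and their inhibitors had 5 higher and 5 lower of 18. Ccne1 (cyclin E1) went from 408, 417 and 424 CPM to 82.4, 79.3 and 75.7 CPM (-2.39 ± 0.06) and Ccnd2 (cyclin D2) from 8.26, 11.1 and 12.2 CPM to 148, 140.0 and 147 CPM (3.79 ± 0.12). The lines were tightly grouped in both.

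Chromatin genes had no common direction. Of 26 Polycomb genes 7 were higher and 13 lower, with a median of -0.20. Of genes whose products accompany the PRC2 enzyme, Phf19 went from 130.1, 139 and 114 CPM to 6.34, 7.96 and 8.77 CPM (-4.05 ± 0.12) and Jarid2 from 776, 748 and 719 CPM to 129.8, 153 and 123 CPM (-2.46 ± 0.08). The core subunit gene Eed fell (-1.61 ± 0.06), and that of the methyltransferase, Ezh2, had 249, 252 and 239 CPM on day 0 and 247, 228 and 217 CPM on day 3 (-0.09 ± 0.06, adjusted p 0.22). The PRC1 genes Bmi1 (1.31 ± 0.15) and Yaf2 (1.66 ± 0.14) rose. In the SMC family, to which Smchd1 belongs, 3 of 9 were higher and 2 lower, none beyond a log2 fold change of 1, with a median of 0.13. With library totals alone 5 were higher and the median was 0.24.

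Germline genes that DNA methylation keeps silent were 3 higher and 9 lower of 18, with a median of -0.64. The lower ones were 6 without line 3 and 11 without line 2. The 3 that rose were the meiotic genes Sycp3, from 12.6, 12.6 and 14.9 CPM to 51.4, 68.0 and 57.7 CPM (2.15 ± 0.13), Stra8 (2.45 ± 0.33) and Brdt (1.92 ± 0.34). Of the 9 genes of the two-cell-like state that were tested, 1 was lower, Zscan4d (-1.48, adjusted p 0.011), with near-identical relatives that make its count uncertain. Imprinted genes, several of which Smchd1 is known to silence, were 12 higher and 9 lower of 25, with a median of -0.07. Sgce rose from 13.8, 10.2 and 11.8 CPM to 75.3, 83.8 and 80.2 CPM (2.74 ± 0.12), Airn, the antisense RNA of Igf2r, from 0.112, 0.254 and 0.390 CPM to 3.02, 3.96 and 5.66 CPM (4.06 ± 0.47), and Snrpn fell from 365, 398 and 374 CPM to 120.2, 136 and 125 CPM (-1.57 ± 0.07). The list had no common direction, and the sign of its median turned with library totals alone (0.047).

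Reference genes used for normalisation were 4 higher and 6 lower of 14, with a median of 0.02. Rplp0 had 1688, 1707 and 1638 CPM on day 0 and 1600.2, 1803 and 1625 CPM on day 3 (0.00 ± 0.06, adjusted p 0.97). Actb fell by 0.55, B2m rose by 2.72 and Tfrc fell by 1.47 on the log2 scale. Scaling by library totals alone, without composition factors, moved the median of all genes from 0.02 to 0.14.

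Transcripts of cell types outside the NMP path were also present. Of 15 endoderm genes tested 14 were higher and none lower, 6 beyond a log2 fold change of 1, with a median of 1.48. Sox17 went from 2.18, 5.09 and 4.48 CPM to 12.3, 18.2 and 28.9 CPM (2.36 ± 0.33) and Gata6 from 6.81, 9.28 and 12.1 CPM to 18.0, 27.3 and 24 CPM (1.31 ± 0.21), both with overlapping annotated exons. Line 1 was the lowest on both days. The 6 endoderm markers summed to 21.5 to 40.5 CPM on day 0 and 75.1 to 119.5 CPM on day 3, so transcripts of endoderm were present in the stem cell cultures too. Afp, Ttr and Apoa1, genes of mature endoderm, were too low to test. Pdgfra, Foxa2, Col4a1, Lama1 and Sparc are also expressed outside endoderm, and the part of endoderm cells in the change of these or other genes was not tested.

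Trophoblast genes had no common direction, with 3 higher and 5 lower of 12 and a median of 0.04. Elf5 and Ascl2, of trophoblast stem cells, fell by 1.24 and 2.78 on the log2 scale, and Gata3 (0.25) and Krt7 (-0.03) did not pass. Tpbpa, a marker of the spongiotrophoblast of the placenta, had 2 counts on day 0 and 24.7, 34.8 and 32.7 CPM on day 3. The ratio of its counts was 757, with an exact 95% interval of 209 to 6254, and its fitted change of 9.34 was 8.75 without line 2 and 12.12 without line 3. The 4 trophoblast markers summed to 19.8 to 25.1 CPM on day 0 and 44.0 to 56.0 CPM on day 3, a rise carried by Tpbpa, with 1 of the 4 called higher and 1 lower. Their part in the other results was not tested.

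Among genes reaching 200 counts on average on either day, those with the highest fitted rises included a lincRNA, a receptor gene and placental genes. They had no day 0 count, so only lower bounds of their folds are known, and the order of rises is not. They passed the filter on low counts only through day 3, so their direction was fixed by the filter. Gm45889 (chromosome 7, 142283210 to 142290418), a lincRNA, had no count on day 0 and 70.7, 30.5 and 49.0 CPM on day 3. Aplnr (chromosome 2, 85136225 to 85139923), the apelin receptor gene of migrating mesoderm, had no count on day 0 and 42.2, 4.81 and 18.4 CPM on day 3, at least 348-fold higher, with a fitted change of 11.64, or 10.72 without line 1. The placental genes were Psg29, with 15.7, 25.6 and 21.8 CPM on day 3 (at least 346-fold), Ctsj, with 17.0, 18.9 and 26.0 CPM (at least 338-fold), and Prl2b1, with 17.3, 19.9 and 20.7 CPM (at least 316-fold), all without a count on day 0. Their families hold near-identical copies, so the assignment of reads within a family is uncertain. The spread between lines was wide in Aplnr and narrow in Prl2b1.

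The deepest falls by the same rule were of Krt42, Glod5, Dusp27, Nr0b1, Ttn and Jam2. Krt42, a keratin gene, went from 24.1, 25 and 16.5 CPM to 0.0512, 0.0942 and 0.0985 CPM (-7.94 ± 0.33). Jam2 (chromosome 16, 84774123 to 84825928), a junctional adhesion molecule gene, went from 172, 169.5 and 182 CPM to 3.79, 3.91 and 3.20 CPM (-5.58 ± 0.10, adjusted p 2.4e-12). Dusp27 went from 73.7, 68.3 and 61.3 CPM to 0.153, 1.27 and 0.443 CPM (-6.71 ± 0.29), and -7.77 without line 2, and Ttn, the titin gene, which has overlapping annotated exons, changed by -5.63 ± 0.26, and -6.42 without line 2. In Dusp27 and Ttn line 2 had the highest level on day 3.

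The levels of the 3 lines on day 3 were ordered alike in several lists. In the caudal and NMP list, line 1 was the highest in 16 of 18 genes on day 3 and line 2 the lowest in 16 of 18. In the naive list, line 2 was the highest in 13 of 16 and line 1 the lowest in 15 of 16, and line 2 had also been the highest in 14 of 16 on day 0. In the Hox list, line 1 was the highest in 24 of 30 and line 2 the lowest in 21 of 30. Over all 15836 genes tested, lines 1, 2 and 3 were the highest on day 3 in 5926, 5511 and 4399 genes. Of the 1253 genes that fell beyond a log2 fold change of 1, line 2 was the highest on day 3 in 640, and of the 1563 that rose, line 1 was the highest in 741. By the size of each line's own change, line 2 had the smallest in 8 of 16 naive genes (line 3 in 7), 11 of 12 core genes, 12 of 18 caudal and NMP genes and 23 of 30 Hox genes. Over all genes tested the smallest change was in line 1 for 33.0%, line 2 for 34.5% and line 3 for 32.5%. These are counts over genes of 3 libraries and carry no test. The endoderm list went another way, with line 1 the lowest in 13 of 15 genes on day 3.

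The widest spread between lines among genes called was in Aplnr, Plxna2, Dynlt1a and Rspo3. Plxna2, a semaphorin receptor gene, had 3.57, 4.83 and 4.81 CPM on day 0 and 31.2, 6.17 and 12.2 CPM on day 3, a change of 1.91 ± 0.45 that was 0.93 without line 1. Dynlt1a, a dynein light chain gene with near-identical copies, had 5.08, 5.4 and 29.0 CPM on day 0 and 3.89, 4.24 and 4.48 CPM on day 3. Its change of -1.63 ± 0.53 (adjusted p 0.017) rested on the day 0 library of line 3, and was -0.36 with an adjusted p of 0.34 without that line. Over the 2816 genes beyond a log2 fold change of 1, the median SD of the 3 line changes was 0.29.

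Much of the net change was in place before Wnt activation. On the log2 scale with 0.5 CPM added, 1949 of the 2816 genes (69.2%) had covered at least 50% of their change by day 2, another 711 (25.2%) by day 2.5 and 156 (5.5%) only by day 3. These counts use group means. In lines 1, 2 and 3 taken singly, the share by day 2 was 63.1, 70.6 and 64.6%. By direction, 74.0% of the genes that fell and 65.4% of those that rose were past that point by day 2, or 73.0 and 68.3% among genes with a mean of 50 counts and 73.4 and 70.3% for the same genes in wt, and these differences were not tested. The median member of the naive list had covered 89.6% of its change by day 2, that of the core list 61.5%, that of the Hox list 17.0% and that of the caudal and NMP list 4.25%. The same median was 67.7% over the 2816 genes and 74.0% over all genes tested. T was at 0.737 ± 0.640 CPM on day 2 and 352 ± 38.0 CPM on day 2.5, and Nanog at 69.8 ± 10.6 and 56.3 ± 11.8 CPM (SD, n = 3). Of the 2816 genes, 946 went beyond their day 3 level on day 2 or day 2.5, and 130 had moved the opposite way on day 2. Because these genes were picked on the day 3 against day 0 contrast, which shares both end libraries with the shares given, the shares are a description.

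**Figure D4:**
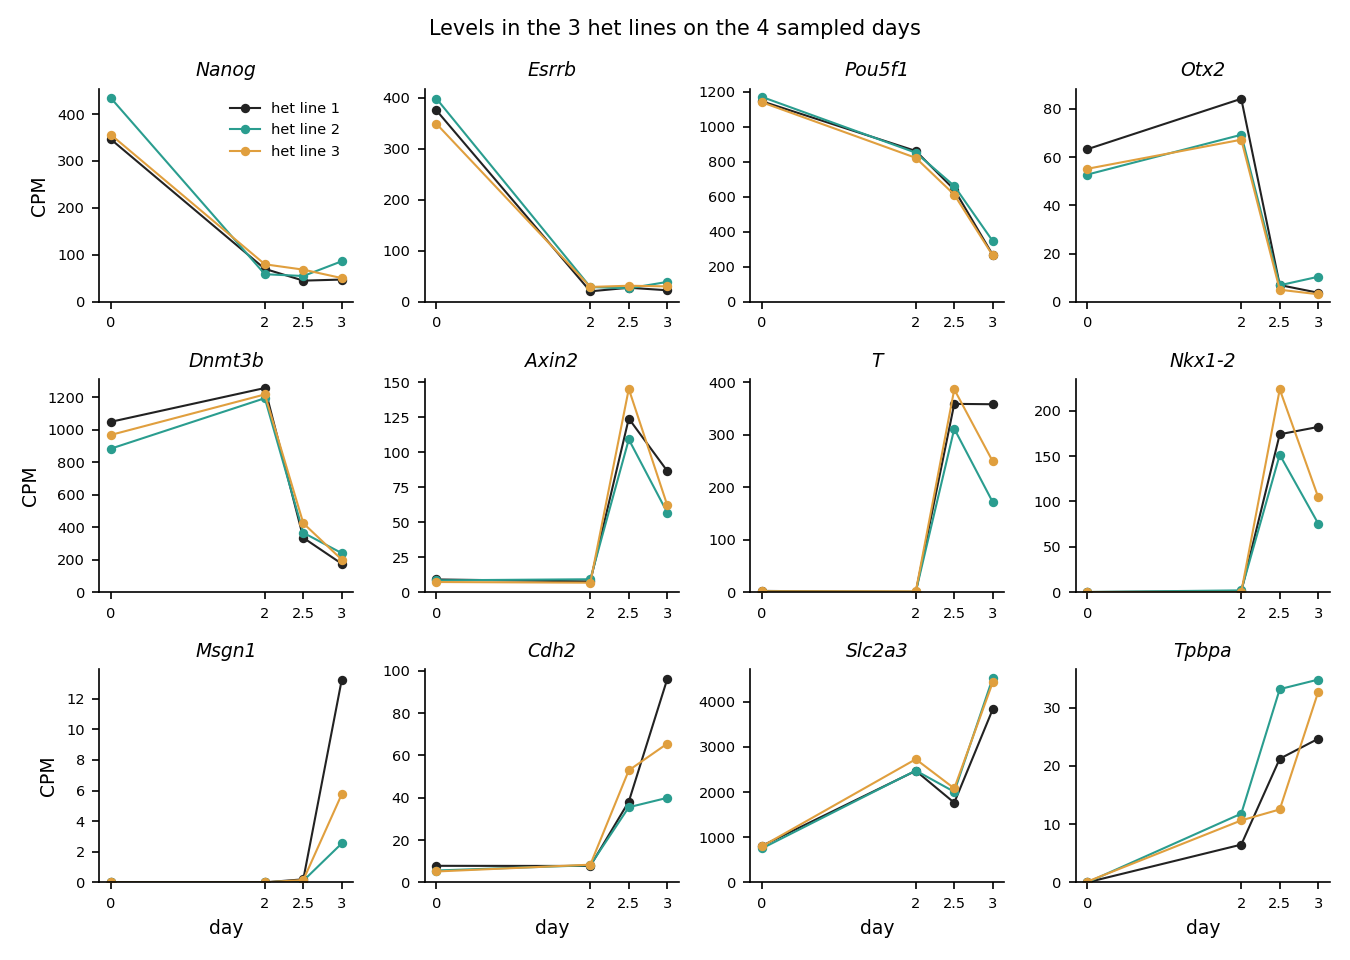
CPM (y axis, linear from 0) of 12 genes on days 0, 2, 2.5 and 3 (x axis), with 1 coloured line of points for each of the 3 het lines. Nanog falls before day 2, Otx2 and Dnmt3b fall after day 2, T rises between day 2 and day 2.5, and Msgn1 rises between day 2.5 and day 3.

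The wt lines were compared on the same days to ask whether the net change depended on the Smchd1 genotype. In wt, 8306 of 15488 genes tested (53.6%) passed the same test. The het and wt contrasts share no library, and across 15218 genes tested in both, their log2 fold changes correlated (Pearson's r 0.923, Spearman's rho 0.908), as a description over genes that are not independent. Of the 2816 genes, 2652 were tested in wt, all 2652 had the same sign there and 2488 were called in the same direction. Their median size of change was 2.27 in het and 2.11 in wt. List medians in wt were -3.44 for naive genes, -2.57 for core genes, 4.88 for caudal and NMP genes and 7.53 for Hox genes. In the formative and primed epiblast list the median was -2.21 in wt against -1.68 in het. For contractile genes and YAP targets it was 1.02 against 1.36. In edgeR's test of the difference, described below, 8 of 14 and 7 of 12 genes of these lists had an unadjusted p under 0.05. Over all 15836 genes tested in het, 1401 did. None passed after adjustment. The medians had opposite signs in 6 lists, with 0.70 in het and -0.32 in wt for the primitive streak, 0.82 and -0.08 for neural progenitor genes, 0.07 and -0.47 for ERK feedback, 0.04 and -0.31 for trophoblast, -0.07 and 0.14 for imprinted and 0.02 and -0.12 for reference genes, and these differences were not tested. The primitive streak medians cover 13 genes in het and 12 in wt, so their gap is not like for like. Those of Hox genes cover 30 and 28.

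Tested directly, the difference between the het change and the wt change passed for 0 of 16549 genes (0%) in edgeR, with 1455 genes at an unadjusted p under 0.05 and a smallest adjusted p of 0.17. With each line as a block it passed for 4 genes, and the DESeq2 Wald test called 15. The 4 genes, named after their values were seen, were Igsf8, Lefty2, Cldn4 and Malat1. Lefty2, a Nodal antagonist gene, had 47.3, 40.6 and 45.3 CPM on day 0 and 24.7, 15.2 and 19.4 CPM on day 3 in het, a change of -1.17 against -2.63 in wt. The difference was 1.45 ± 0.29 (adjusted p 0.34 without the block and 0.037 with it). Cldn4, a tight junction gene, had 75.0, 79.1 and 69.3 CPM and then 83.8, 75.1 and 94.8 CPM in het, with 0.19 against -0.82 in wt and a difference of 1.00 ± 0.16 (adjusted p 0.17 and 0.037). Malat1, a nuclear lincRNA, had 203, 207 and 279 CPM and then 207, 150.4 and 316 CPM in het, with -0.03 against 1.13 in wt and a difference of -1.16 ± 0.33 (adjusted p 0.47 and 0.037).

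**Figure D5:**
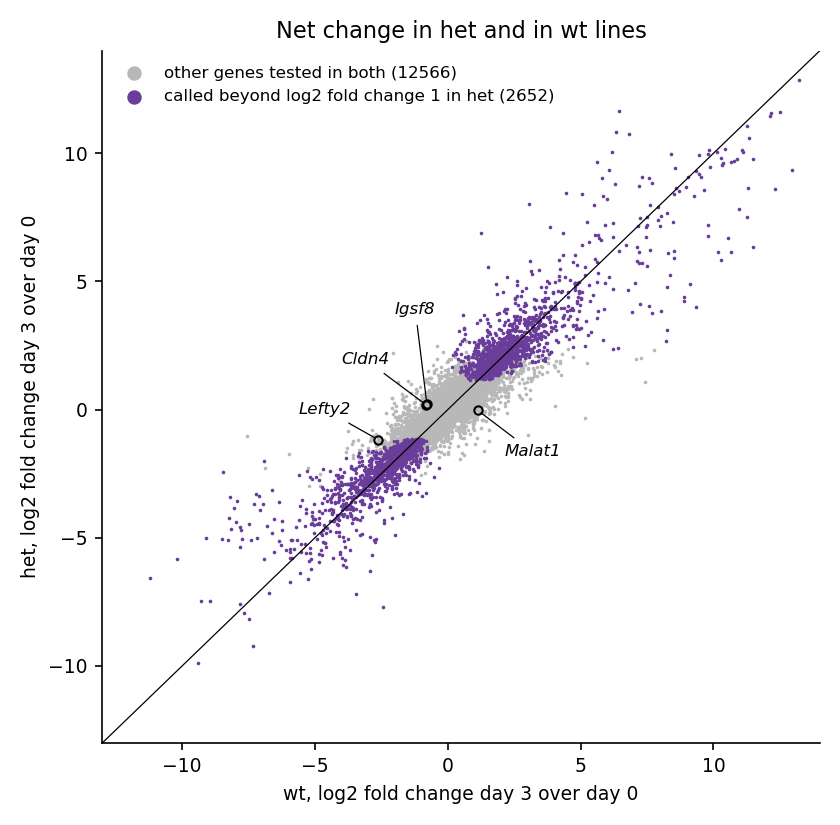
Log2 fold change of day 3 over day 0 of each gene in wt lines (x axis) and het lines (y axis), with the 2652 genes called beyond a log2 fold change of 1 in het coloured, the line of equal change drawn, and the 4 genes called with the line as a block ringed and named. The coloured genes lie in the quadrants of equal sign, and the 4 ringed genes lie off the line of equal change.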

How the data were processed

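Poly(A) RNA libraries, made with TruSeq stranded or non-stranded kits, were sequenced by the authors. Per the submitters' processing notes, Trim Galore 0.4.4 and HISAT2 2.0.5 were used with GRCm38.p6, and per the study's methods genes were quantified in SeqMonk. The deposited counts are raw reads per gene. The strand setting of each library and the handling of overlapping genes are not given in the sources used here. The authors also deposited log2 RPKM values of 39 Hox genes and 34 factors, not used here, nor were 8 columns of group means.

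The edgeR 4.0.16 package, in R 4.3.3, was run on the counts (filterByExpr, TMM factors, quasi-likelihood test, glmTreat at a log2 fold change of 1, Benjamini-Hochberg adjusted p of 0.05), on 3 against 3 libraries, and with an interaction term for het against wt. CPM are scaled with TMM factors and values after ± are SE for log2 fold changes. p-values measure the spread between 3 lines per genotype. Same-numbered libraries came from one line, and their residuals correlated at 0.041 to 0.057 in het and 0.028 to 0.045 in wt, so the line was also fitted as a block. Alternatives were DESeq2 1.42.0 (size factors and Wald test), limma 3.58.1 treat, library totals, other filters, one fit of all 24 libraries, thinning (seed 7) and fits leaving out each line. The fit was tested on simulated data. Python 3.11.15 and matplotlib 3.10.9 drew the figures.

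The comparison, panel and 29 gene lists (481 symbols, 479 in the table, 427 tested) were chosen with earlier results of these data known. Named genes were a panel of 37, the largest changes among genes averaging 200 counts on either day, the largest gains and losses of library share, the widest spread between lines, and examples of each list. Other members named were chosen after their values were seen. A further gene that the rule names is not reported here.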

Additional observations from a re-analysis of the deposited data

Results flagged for a closer look

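Igsf8, an immunoglobulin superfamily gene, was the 1 of 123 named genes in which all 3 het lines moved one way and all 3 wt lines the other. It was named because its change differed between genotypes with each line as a block, so this pattern is no separate support. How often the pattern occurs over all genes tested was not counted. It had 36.8, 35.4 and 33.2 CPM on day 0 and 39.5, 44.4 and 39.1 CPM on day 3 in het lines 1, 2 and 3, with line changes of 0.10, 0.32 and 0.23 on the log2 scale, against -0.88, -0.83 and -0.65 in the wt lines. The het change minus the wt change was 1.01 ± 0.22 (SE), with an adjusted p of 0.37 in edgeR and 0.043 with each line as a block. Groups of 3 libraries were not tested for libraries far from the others.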

How the results depend on the processing

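The replicate block, with each line as its own pair, gave 10249 genes in het, 2819 beyond a log2 fold change of 1 and 8398 in wt, and changed no call by over 1.5 times except that of the difference between genotypes. That difference was 0 genes and became 4 with the block (3 higher and 1 lower in het), 15 with the DESeq2 Wald test, 173 of 24272 with no filter beyond 1 count, and 0 to 1 when single lines were left out, the 1 without wt line 1; the cause was not tested. The het count of 10187 ranged from 8349 to 10868 over the alternatives, that beyond a log2 fold change of 1 from 2213 to 3107, and the wt count from 5762, without wt line 3, to 9467. Library totals alone split the het calls into 6005 higher and 4257 lower. Of 1346 alternatives for 123 named genes, 1334 kept direction and side of the threshold, 4 fell short of it, 6 passed it and 2 turned sign, both of Malat1, whose change became 0.089 with library totals and ranged from -0.19 to 0.12 with single lines left out. Of 319 alternatives for 29 list medians, 290 moved by less than the spread between lines, 21 moved by more with the same sign (the primitive streak, neural progenitor, Hox and BMP values stand beside their results) and 8 turned sign. The last were trophoblast (-0.036 to 0.072 with single lines left out), ERK feedback (-0.0019 when thinned), G1 cyclins (0.042 with library totals), imprinted genes (0.047 with library totals, 0.065 with a mean of 50 counts, -0.14 to 0.017 with single lines left out) and reference genes (-0.016 to 0.0093 with single lines left out). The share past 50% of the change by day 2 was 70.3% with a mean of 50 counts and 69.0% with 1 added to each CPM. With 3 lines, the depth of 16.1 to 20.7 M counts limits genes under about 3 counts per group, which is 0.0612 CPM on day 0 and 0.0491 CPM on day 3, and reads without molecular identifiers make such bounds cover counting error only.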

Other observations

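Families outside the lists were examined after their values were seen, and their counts are descriptions. Of 46 pregnancy-specific glycoprotein, prolactin family and placental cathepsin genes in the count table, 40 had no count in any het day 0 library and 17 were tested, the others being too low. Of the 17, 13 had no day 0 count and passed the filter only through day 3, where they were high, so their direction was fixed by the filter. Summed over the 46 genes the level was 0.0650 to 0.391 CPM on day 0, 45.8 to 57.0 CPM on day 2, 85.7 to 239 CPM on day 2.5 and 103 to 155 CPM on day 3. Members of these families are near-identical, so the split of reads between them is uncertain.

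All 5 Nodal pathway genes were lower on day 3 in het, with a median of -1.79 against -2.69 in wt, and summed to 1098 to 1268 CPM on day 0 and 132 to 227 CPM on day 3. Of 21 basement membrane genes 17 were tested, 11 were higher and 1 lower, with a median of 0.91. For 1 of the 17 all counts came from a single day, so its direction was fixed by the filter. They summed to 2564 to 3217 CPM on day 0, 6192 to 8269 CPM on day 2 and 5301 to 8246 CPM on day 3.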
